A study of Mus musculus with 4 samples.

Results

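Mouse neurospheres were compared with floating embryoid bodies of R1 embryonic stem (ES) cells on 3 of the 4 arrays of the study. The arrays were chosen by their titles: 1 carried neurosphere RNA (NSC) and 2 carried R1 embryoid body RNA (R1 aggregation and R1 suspension). The 1 array of adherent R1 cells was not used. Neurospheres are floating balls of neural stem and progenitor cells, here from the telencephalon of E13.5 embryos, in DMEM and F12 medium with FGF2. Per the labels, that preparation was contaminated with astrocytes, oligodendrocytes and glia. R1 is an ES cell line described in the labels as inner cell mass. Its embryoid bodies were kept unattached for 48 hours in DMEM with beta-mercaptoethanol and LIF, the cytokine that holds mouse ES cells in their undifferentiated state. All 3 cultures therefore floated, and they differed in cell type, medium and growth factor at once, so the parts of these in any difference cannot be told apart. The labels name no genotype, strain, age or passage beyond this.

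Telencephalic progenitors, or radial glia, line the ventricles of the developing forebrain and give rise to neurons and later to glia. They carry a fatty acid binding protein, Fabp7, and matrix proteoglycans such as brevican (Bcan), and FGF2 keeps them dividing. Mouse ES cells keep their state through the factors Oct4 (Pou5f1), Sox2 and Nanog, helped by LIF and STAT3, and divide with a very short G1 phase.

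RNA was labelled with biotin and hybridised to MG_U74Av2 oligonucleotide arrays. A signal is the MAS5 intensity of a probe set after each array was brought to a 2% trimmed mean of 500, and a log2 difference is taken on log2(signal + 32), which understates the change of dim genes. Signals are given in the order neurospheres, aggregation array, suspension array. The deposited trimmed means were 29.5, 32.5 and 1485, and after scaling the medians were 242, 225 and 236. The 3' to 5' ratios, a measure of RNA integrity, lay between 0.88 and 0.946 for Gapdh and between 1.11 and 1.20 for actin. The bacterial control probe sets, which mark the dim end, had medians of 27.1, 36.1 and 40.9. Both embryoid body arrays carry the same sample number in the labels, and no label states that their cultures were separate. The p-values therefore reflect the spread of that pair alone, and it may be technical. The neurosphere array had no replicate and was assumed by limma to vary like them. In bulk RNA, fewer cells of a type and less RNA per cell cannot be told apart.

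Among 6662 features tested, 775 (11.6%) were at least 2-fold higher in the neurospheres than in each embryoid body array and 780 (11.7%) were at least 2-fold lower. By limma, at a Benjamini-Hochberg adjusted p under 0.05, 525 features rose (7.88%) and 671 fell (10.1%), and 447 and 552 met both conditions. The median log2 difference over all features was -0.02. A difference of at least 4-fold from both arrays was reached by 236 features upward and 218 downward, and one of 16-fold by 12 and 33. The embryoid body arrays were themselves 2-fold apart in 414 features one way and 534 the other, and their correlation across features was 0.898, against 0.659 and 0.666 with the neurospheres. The condition that both arrays be passed kept out 456 features that were 2-fold higher against the aggregation array alone and 371 against the suspension array alone. At the limit, Evl lay just inside at 1.002 and Mrpl41 just outside at 0.9997 on the higher side, with Ctnna1 (-1.002) and Kif11 (-0.9995) on the lower side, as the smaller of the 2 log2 differences.

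**Figure D1:**
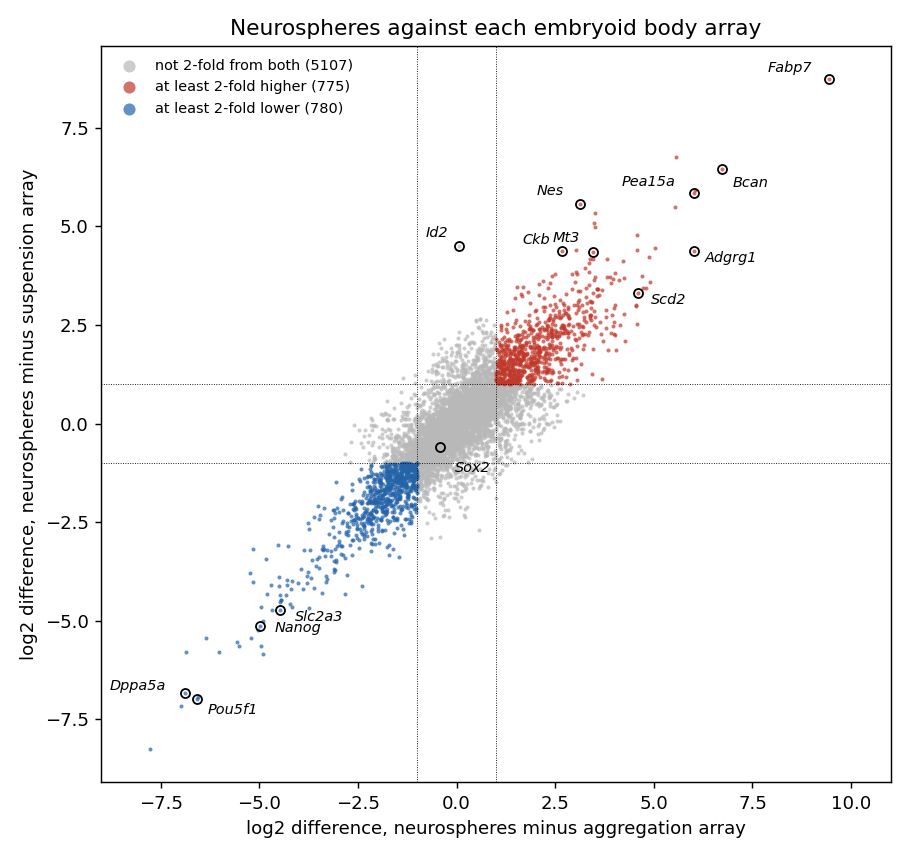
Each point is 1 of 6662 features, with the log2 difference of neurospheres minus the aggregation array on the x axis and minus the suspension array on the y axis. Red points (775) and blue points (780) were at least 2-fold from both arrays (dotted lines), and Id2 lies far from the diagonal, at 0.05 and 4.49.

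The limma calls lean on its assumption that the spread follows signal intensity. Without that intensity trend 169 features were called, 79 higher and 90 lower, and of 194 called genes that the naming rule picked 64 kept their call, among them Fabp7, Bcan, Pou5f1 and Nr0b1. The counts without the trend are therefore given with the gene groups. Other settings ended fewer calls. With no filter on signal 24 calls were lost, among them Bmi1, Cd14, Dll1, Egfr, Fgfr1, Gap43, Irf1, Jun, Nkx2-2, Pdk1, Smad1 and Txndc5. Averaging a gene's probe sets ended 8 calls, among them Dvl2, Egfr, H2-K1, Ncam1 and Stmn2. Plain _at probe sets alone ended those of Actn1 and Egfr, and cyclic loess ended 8, among them Cd14. Probe sets of 1 gene did not always move together. Of the 194 called genes, 69 had another probe set of the same symbol, and in 31 of these at least 1 other probe set differed by under 0.5 on the log2 scale in the called direction or went the opposite way. Signals printed for a gene are those of its brightest probe set, and the others are given beside the genes concerned where these are named. Percentages after a gene group's counts are the shares of its tested members that rose and that fell, to be read against 7.88% and 10.1% of all features. The lists were chosen with earlier results of these data known, so their counts are descriptive. They also overlap: of 1009 tested list genes, 52 are in more than 1 list. A gene is said to pass only when limma called it, whatever its fold difference.

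The labelled cell types were checked against their markers. Fabp7 had a signal of 41867 in the neurospheres, 28.2 in the aggregation array and 67.3 in the suspension array (log2 difference 9.08, SE 0.45, limma adjusted p = 1.8e-14). Bcan had 10905 in the neurospheres, 71.3 in the aggregation array and 92.6 in the suspension array (log2 difference 6.59, SE 0.47, limma adjusted p = 3.4e-11). In both embryoid body arrays each lay below the array median. Pou5f1 had 51.3 in the neurospheres, 7911 in the aggregation array and 10547 in the suspension array (log2 difference -6.78, SE 0.32, limma adjusted p = 1.2e-14), and a second, separate Pou5f1 probe set differed by 0.26. The orphan nuclear receptor Nr0b1 had 28.9 in the neurospheres, 5697 in the aggregation array and 7345 in the suspension array (log2 difference -6.74, SE 0.34, limma adjusted p = 3.7e-14), and a second Nr0b1 probe set differed by -0.18. On the brightest probe set of all 4 genes the neurospheres lay outside the range of the embryoid bodies.

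Many genes of neural progenitors and radial glia rose in the neurospheres. Of 21 genes on the array 20 were tested, and 11 rose and 1 fell (55% and 5%). The median log2 difference over the genes on the array was 2.88, and 8 of the rises and 0 falls stayed without the trend. Neuronatin (Nnat), an imprinted membrane protein of the developing brain, rose from 192 and 65.2 in the embryoid bodies to 10477 (log2 difference 6.15, SE 0.48, limma adjusted p = 2.5e-10). Nestin (Nes), the intermediate filament that names neural stem cells, had 3945 in the neurospheres, 424 in the aggregation array and 52.5 in the suspension array (log2 difference 4.34, SE 0.62, limma adjusted p = 7.6e-06). The embryoid body arrays differed widely for Nes, yet both stayed below the neurospheres, its call was lost without the trend, and a second probe set differed by 0.55. The acyl-CoA binding protein Dbi rose (16996 against 623 and 1249), as did the adhesion receptor Adgrg1 (3779 against 26.5 and 153) and the endothelin receptor Ednrb (835 against 22.4 and 82.7). N-cadherin (Cdh2), the adhesion molecule of neuroepithelium, rose (759 against 38 and 28.7, log2 difference 3.60, SE 1.10, limma adjusted p = 0.022), although with 1 added before log2 in place of 32 it was not called. The growth factor midkine (Mdk) fell (976 against 2079 and 3704).

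Several familiar progenitor genes did not pass. Sox2, needed by both cell types, had 6644 in the neurospheres, 8859.5 in the aggregation array and 9981 in the suspension array (log2 difference -0.50, SE 0.27, limma adjusted p = 0.22). Vimentin (Vim) had 333 against 285 and 479.6, and the embryoid body values lay on both sides of the neurospheres. Pax6, a factor of dorsal telencephalic progenitors, had 105 against 58.6 and 27.3, below each array's median, and was not tested. Sox1 had 445 against 269 and 94.6 and the RNA-binding protein Msi1 had 172 against 228 and 282.

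**Figure D2:**
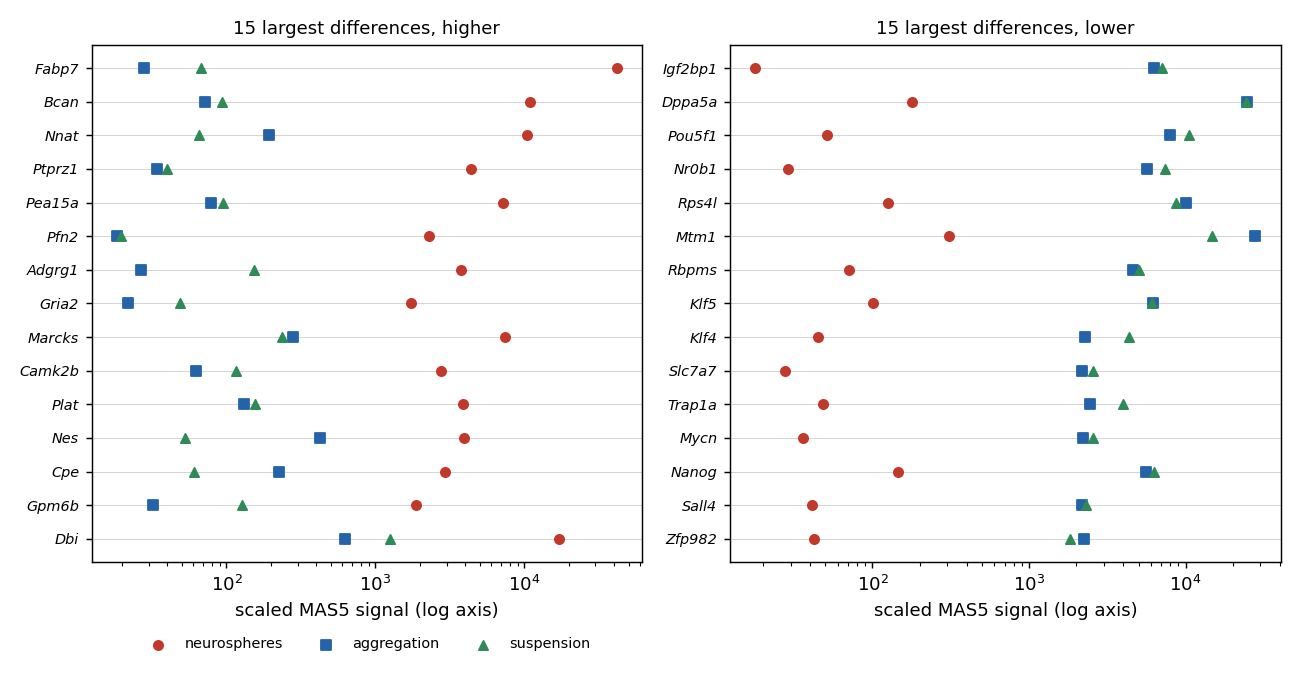
Scaled signal on a log axis in each of the 3 arrays for the 15 genes with the largest log2 difference each way among named genes called by limma and at least 2-fold from both embryoid body arrays. The differences run from 9.08 for Fabp7 to 4.22 for Dbi and from -7.07 for Igf2bp1 to -4.80 for Zfp982 on the log2 scale. The choice of genes fixes that the neurosphere point lies outside the embryoid body points.

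Some transcription factors that pattern the forebrain rose. Of 30 genes on the array 20 were tested, and 9 rose and 1 fell (45% and 5% of those tested, after a signal filter that favours genes high in 1 group). The median over the genes on the array was 0.82, and 2 rises and 0 falls stayed without the trend. The orphan receptor Nr2f1, a cortical area factor, had 890.1 in the neurospheres, 34 in the aggregation array and 19.6 in the suspension array (log2 difference 3.98, SE 1.12, limma adjusted p = 0.013). That call was lost with 1 added before log2. Nkx2-2, known from ventral neural progenitors, had 925 against 17.6 and 194 (log2 difference 3.18, SE 0.87, limma adjusted p = 0.011). The POU factor Pou3f3 (1036 against 95.8 and 101), Nfib (822 against 58.7 and 107) and Nfix (1067 against 268 and 256) of the nuclear factor I family, and the class I bHLH partners Tcf4 (1702 against 228 and 324) and Tcf12 (2010.0 against 298 and 381) rose. Gli1, a target of Hedgehog signalling, fell (129 against 580.4 and 826). Dlx1, Dlx2 and Dlx5, factors of the ventral telencephalon, read 24.4, 68.3 and 72 in the neurospheres and were below the array median on all 3 arrays.

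Several matrix and adhesion genes of the brain rose. Of 39 genes on the array 22 were tested, and 9 rose and 1 fell (40.9% and 4.55%, median over the genes on the array 0.87, 6 rises without the trend). The receptor phosphatase Ptprz1, which carries chondroitin sulfate chains, had 4359 in the neurospheres, 34.4 in the aggregation array and 40 in the suspension array (log2 difference 5.99, SE 0.67, limma adjusted p = 1.8e-07). Tissue plasminogen activator (Plat) rose (3882 against 131 and 154, log2 difference 4.49), as did astrotactin (Astn1, 1084 against 39.3 and 56.2), the heparan sulfate proteoglycan Gpc1 (3515 against 667 and 520.2), contactin (Cntn1, 1190.4 against 201 and 205) and Ncam1 (1496 against 416 and 301, other probe sets 0.38 to 0.66). The semaphorin Sema6a had 404 against 45 and 109, at least 2-fold above both arrays, but was not called by limma. The syndecan Sdc4 went the other way and fell (129 against 3674 and 1330.1, log2 difference -3.81, SE 0.45, limma adjusted p = 4.6e-07). Its call was lost without the trend, which left 0 falls in this list.

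The astrocyte list bears on the contaminating cells named in the labels. Of 21 genes on the array 20 were tested, and 8 rose and 1 fell (40% and 5%). The median over the genes on the array was 1.06, and 3 rises and 0 falls stayed without the trend. The summed signal of the list was 71986 in the neurospheres, 51636 in the aggregation array and 34606 in the suspension array. Its defining marker Gfap, the filament of mature astrocytes, had 384 in the neurospheres, 130.1 in the aggregation array and 215 in the suspension array (log2 difference 1.06, SE 0.71, limma adjusted p = 0.35), and a second Gfap probe set differed by -0.26. Aqp4 had 251 against 61 and 225. For S100b (146 against 18.4 and 156) and Apoe (22420.0 against 37420.0 and 22272) the neurospheres lay within the embryoid body range. The members that rose were Pea15a (7219 against 79.2 and 94.2), Cpe (2908 against 224 and 60.9), Gpm6b (1879.9 against 32.3 and 127), Mt3 (12719 against 1135 and 599), Sparcl1 (1069 against 73 and 29.6), Aldoc (4279 against 194 and 599), Cst3 (11234 against 2214 and 2448) and Itm2b (2096 against 406 and 532), several of which radial glia also express. S100a6 fell (178 against 1886 and 1101). The part of astrocytes in the neurosphere values was not tested.

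The oligodendrocyte list gave no call on the brightest probe sets. Of 11 genes on the array 6 were tested, limma called 0, and 0 had an unadjusted p under 0.05. Averaging a gene's probe sets gave 2 calls, both higher, Pdgfra (log2 difference 2.11, limma adjusted p = 0.038) and Qk (1.497, limma adjusted p = 0.0073). With 100 added before log2, Pdgfra was called on another probe set (2.90, limma adjusted p = 2.2e-04). The summed signal was 5846 in the neurospheres, 5847 in the aggregation array and 5196 in the suspension array. Sox10, a defining factor of the lineage, had 1209.9 against 678 and 845, Mbp of myelin 409 against 351 and 171 and the growth factor receptor Pdgfra 394 against 117 and 400.3. The other probe sets of Pdgfra lay between 0.27 and 3.48, and a second Mbp probe set differed by -0.71. The myelin genes Mog (161 against 39.9 and 41.5) and Mobp (70 against 213 and 187 on the brightest of 4 probe sets) were below the median of every array. The RNA-binding protein gene Qk had 2822 against 3662 and 2639 on the brightest probe set, while a second probe set differed by 3.13, so the sign for Qk depends on the probe set.

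Few neuronal genes were called. Of 32 genes on the array 18 were tested, and limma called 2 higher and 2 lower (11.1% and 11.1%, near the limma shares of all features). The median over the genes on the array was 0.17. By the 2-fold rule against both arrays, 6 were higher and 4 lower (33.3% and 22.2%, beside 11.6% and 11.7% of all features). Gap43 of growth cones rose (756 against 130.4 and 223, log2 difference 1.95, SE 0.61, limma adjusted p = 0.026). Stathmin 2 (Stmn2) fell on its brightest probe set (395 against 1716 and 1674), but its other probe sets ranged from -2.99 to 1.96. The filament protein Ina fell (314 against 736 and 1705). Beta III tubulin (Tubb3) had 5991 in the neurospheres, 4485 in the aggregation array and 4326 in the suspension array (log2 difference 0.44, SE 0.27, limma adjusted p = 0.3), and a second Tubb3 probe set differed by -1.66. Map2 (467 against 25.5 and 32.2) and Dcx of migrating neurons (467 against 158 and 183) were at least 2-fold above both embryoid body arrays without passing. Among transmitter receptors and channels, 16 of 38 were tested and 3 rose and 1 fell (18.8% and 6.25%). The AMPA receptor subunit Gria2 rose (1731 against 21.9 and 48.9, log2 difference 4.74), with its other probe sets between -0.24 and 2.30, and so did the thrombin receptor F2r (4038 against 443 and 671). The kinase subunit Camk2b, among the largest rises, had 2735 against 62.8 and 116 (log2 difference 4.55).

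The defining markers of microglia and macrophages were dim, while a few members of the microglia and endothelial lists were bright. Of 17 microglia genes 8 were tested, and 1 rose and 2 fell (12.5% and 25%). Cd14 rose (970.4 against 225 and 467). Laptm5 (121 against 1918 and 1652) and Cd68 (249 against 905 and 769, with a second Cd68 probe set at 0.10) fell. The summed signal of the microglia list was 4019 in the neurospheres, 6279 in the aggregation array and 5033 in the suspension array. The defining markers Ptprc (3 probe sets, each between 16.4 and 55.3 on every array), Aif1 (54.7 against 46.3 and 40.8) and Itgam (50.6 against 43.8 and 60.2) lay far below the array medians. Of 11 endothelial genes 5 were tested and 1 fell (20%), the TGF-beta coreceptor Eng (436 against 1291 and 1242). None of the 9 fibroblast genes tested was called by limma (1 each way at an unadjusted p under 0.05).

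Most pluripotency genes fell. Of 31 genes on the array 30 were tested, and 0 rose (0 by limma at unadjusted p under 0.05) and 25 fell (0% and 83.3%). The median over the genes on the array was -3.80. This list, which includes Igf2bp1, was chosen with earlier results of these data known, so its share is no independent check. Without the trend 21 falls stayed. Nanog had 145 in the neurospheres, 5592 in the aggregation array and 6232 in the suspension array (log2 difference -5.06, SE 0.32, limma adjusted p = 2.8e-12). The KH-domain protein Dppa5a had 179 in the neurospheres, 24757 in the aggregation array and 24144 in the suspension array (log2 difference -6.86, SE 0.27, limma adjusted p = 2.6e-16). The embryoid body arrays lay close together for both, and a second Nanog probe set differed by -2.39. The Krueppel-like factors Klf4 (44.9 against 2285 and 4336, second probe set -0.15), Klf5 (100.4 against 6185 and 6112) and Klf2 (37.6 against 918 and 918) fell, as did the zinc finger factors Sall4 (40.9 against 2165 and 2321) and Zfp42, known as Rex1 (154 against 3338 and 3350.5). The oncofetal RNA-binding protein Igf2bp1 showed the largest fall among called features with 1 gene symbol, 17.8 against 6244 and 7074 (log2 difference -7.07). Esrrb (236 against 537 and 629.5), Tbx3 (15.2 against 328 and 144) and Nr5a2 (67.4 against 270.2 and 479.8) were at least 2-fold lower than both arrays but did not pass, and a second Nr5a2 probe set differed by 0.92.

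Outside the list, the largest falls by the naming rule included Rbpms (70.4 against 4630.1 and 5024), the amino acid transporter subunit Slc7a7 (27.8 against 2173 and 2572) and the zinc finger gene Zfp982 (42.1 against 2258 and 1837). Mycn, a Myc factor of ES cells, fell (36.1 against 2210.1 and 2549), but a second probe set differed by 0.38. The same holds for the phosphatase Mtm1 (309 against 27920.0 and 14682, second probe set 0.03) and for the ribosomal protein gene Rps4l (125 against 10122 and 8645, second probe set 0.41), so these 3 falls rest on 1 probe set each, as do those of Pou5f1, Nr0b1 and Klf4 above.

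LIF was present in the embryoid body medium and is not named for the neurospheres. Of 20 LIF and STAT3 response genes on the array 18 were tested, and 0 rose (1 by limma at unadjusted p under 0.05). Falls numbered 6 (0% and 33.3%, 3 falls without the trend), and Klf4 among them is also counted in the pluripotency list. Socs3, the feedback inhibitor that STAT3 induces, had 185 in the neurospheres, 676 in the aggregation array and 2165 in the suspension array (log2 difference -2.52, SE 0.50, limma adjusted p = 5.2e-04). The kinases Pim1 (724 against 3876 and 4446) and Pim3 (646 against 3031 and 6298) and the factor Tfcp2l1 (265 against 2299 and 1977, second probe set -0.05) fell. The receptor subunit Il6st had 139 against 447 and 413 and the kinases Jak1 398 against 66.2 and 101 and Jak2 399 against 54.4 and 45.4. Each was at least 2-fold from both embryoid body arrays, Il6st lower and the kinases higher, but none was called by limma. Second probe sets differed by -0.17 for Il6st and -0.01 for Jak2.

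FGF2 was the supplement named for the neurospheres. The list used here covers FGF, EGF and PDGF ligands and receptors and also holds other growth factor genes, such as Igf2, Igfbp2 and Igfbp3. Of its 37 genes on the array 21 were tested, and 5 rose and 4 fell (23.8% and 19%). Among receptors, Fgfr1 had 1383 in the neurospheres, 336 in the aggregation array and 707 in the suspension array (log2 difference 1.44, SE 0.44, limma adjusted p = 0.022). Against the suspension array alone its log2 difference was 0.94, so Fgfr1 was not 2-fold from both arrays. Egfr had 1038 against 387 and 306 (log2 difference 1.51, SE 0.46, limma adjusted p = 0.022). The calls of Fgfr1 and Egfr were lost without the trend and with no filter on signal. Fgfr2 fell (282 against 1162 and 815, other probe sets -0.17 to -0.13). Among ligands, Fgf4, which ES cells make, fell (640.1 against 4364 and 5628, log2 difference -2.89, SE 0.30, limma adjusted p = 7.0e-08), as did Igf2 (278 against 1361 and 1628, second probe set -0.35) and Pdgfa (393 against 867 and 1108). The phosphatase Dusp6, a target and inhibitor of ERK signalling, rose (2866 against 871 and 1429), as did the binding proteins Igfbp2 (23430.0 against 2784 and 6003) and Igfbp3 (1876 against 198 and 106).

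In the Notch pathway, which keeps progenitors undifferentiated, 18 of 19 genes were tested and 4 rose and 1 fell (22.2% and 5.56%). Without the trend 1 rise and 0 falls stayed. The ligand Dll1 had 1306 against 448 and 115 and the target genes Hes5 1039.7 against 95 and 93.8 and Hey1 881 against 89.4 and 147. Hes5 showed nearly equal signals in both embryoid body arrays (log2 difference 3.08, SE 0.70, limma adjusted p = 0.0023). Hes6 rose (1558 against 273 and 287). Rbpj, through which Notch acts on DNA, fell (325 against 976 and 951). The receptor Notch1 had 776 against 434 and 416 and Hes1 had 1538 against 1049 and 818, neither of which passed on its brightest probe set. Second probe sets differed by 0.05 for Dll1, 0.94 for Hes5 and 4.10 for Notch1, so the size for these 3 genes depends on the probe set.

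Calls among Nodal, activin and BMP genes were few and went both ways. Of 40 genes on the array 26 were tested, and limma called 3 higher and 4 lower (11.5% and 15.4%, near the limma shares of all features). Without the trend 1 fall and 0 rises stayed. By the 2-fold rule against both arrays, 4 were higher and 6 lower (15.4% and 23.1%, beside 11.6% and 11.7% of all features). The ligand Nodal (153 against 1098 and 793), its coreceptor Tdgf1 (260.3 against 824 and 1017) and its antagonist Lefty1 (380.2 against 2567 and 4109) fell. Smad7, an inhibitor of both branches, fell (92.7 against 1202 and 1779.6, log2 difference -3.58, SE 0.43, limma adjusted p = 7.1e-07). The ligand Bmp7 (1125 against 109 and 235), the signal carrier Smad1 (803 against 147 and 257) and the BMP target Id3 (1707 against 638 and 451) rose. Id1 had 369 against 566 and 178 and Id2 had 1938 against 1869 and 55.8 (log2 difference 2.27, SE 0.86, limma adjusted p = 0.067). For Id2 the aggregation array matched the neurospheres and the suspension array did not, and for Id1 the neurospheres lay between them.

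Of 32 Wnt pathway genes 21 were tested and limma called 2 higher and 2 lower (9.52% and 9.52%, near the limma shares of all features). Without the trend 0 of these calls stayed, with 4 and 2 by limma at an unadjusted p under 0.05. By the 2-fold rule against both arrays, 4 were higher and 2 lower (19% and 9.52%, beside 11.6% and 11.7% of all features). The receptors Fzd9 (1466 against 75.8 and 171) and Fzd2 (1051 against 37.1 and 162) rose. Dvl2, which relays receptor signals, fell (292 against 1658 and 1275, second probe set -0.38), as did Tcf7l1, a repressor at Wnt targets in ES cells (286 against 1648 and 2183, log2 difference -2.60, SE 0.37, limma adjusted p = 7.5e-06).

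**Figure D3:**
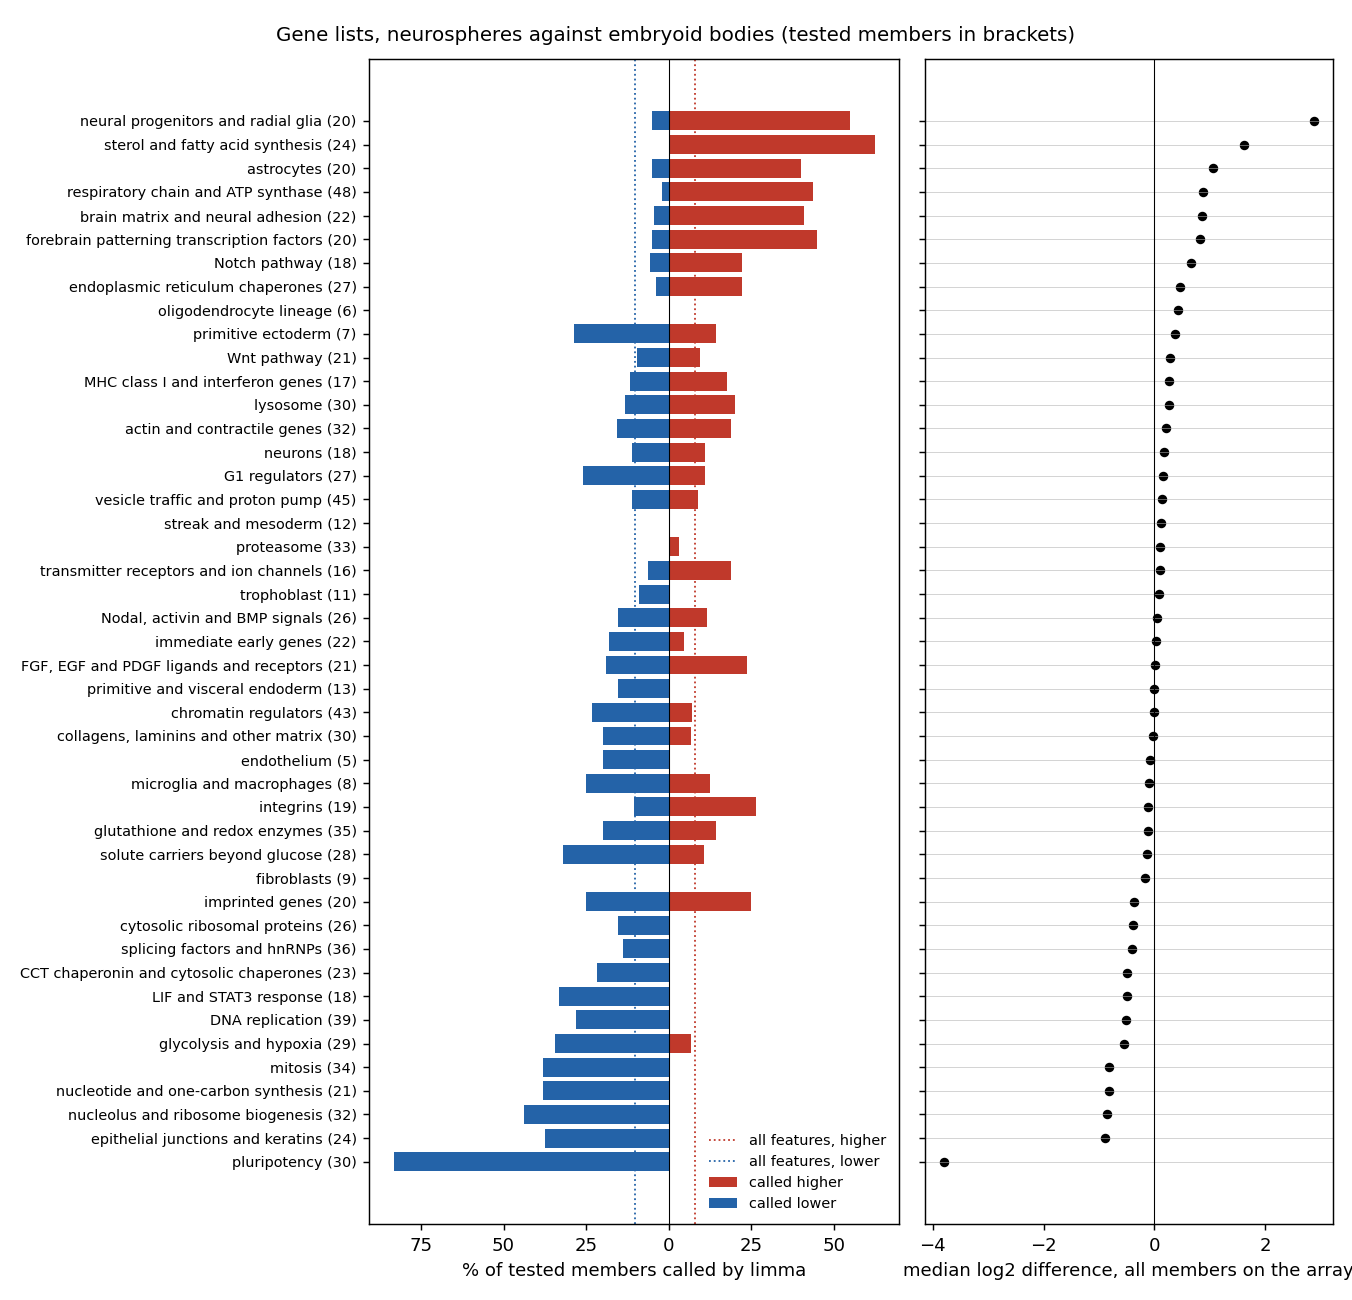
Left, the percentage of tested members of each gene list called higher (red) or lower (blue) by limma, with dotted lines at 7.88% and 10.1%, the shares over all features. Right, the median log2 difference over the members on the array, from -3.80 for pluripotency to 2.88 for neural progenitors.

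Most tested genes of sterol and fatty acid synthesis rose. Of 26 genes on the array 24 were tested, and 15 rose and 0 fell (0 by limma at unadjusted p under 0.05). The rises were 62.5% of those tested, beside 7.88% of all features. The median over the genes on the array was 1.61, and 24 of the 26 lay above 0. Hmgcs1, which makes the precursor HMG-CoA, had 4824 in the neurospheres, 428 in the aggregation array and 762 in the suspension array (log2 difference 3.01, SE 0.37, limma adjusted p = 1.1e-06). Along the pathway Idi1 (2982 against 255 and 421), Fdps (13584 against 1883 and 2741, other probe sets -1.39 to 1.82), Sqle (3353 against 1089 and 857), Lss (1167 against 414 and 381), Cyp51 (1101 against 174 and 87.8) and Dhcr7 (1175 against 75.6 and 182) rose. The desaturase Scd2, abundant in brain, had 26437 in the neurospheres, 1058 in the aggregation array and 2651 in the suspension array (log2 difference 3.95, SE 0.35, limma adjusted p = 3.0e-09). Srebf1, which encodes a transcription factor of lipid synthesis genes, rose (3694 against 1146 and 1474), and its part in the other rises was not tested. That both embryoid body arrays lay below the neurospheres in these genes follows from naming called genes that were 2-fold from both. The count of rises was 15 under each scaling tried, but without the trend limma called 0, with 15 at an unadjusted p under 0.05.

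Promoters are shown for 3 of these genes because the sterol synthesis genes moved together. The bases are the 250 before the RefSeq start site, from build GRCm38.p6 and 5' to 3' on the gene's strand: Hmgcs1 at chr13:119690101-119690350 (plus strand), Idi1 at chr13:8885356-8885605 (plus strand) and Cyp51 at chr5:4104698-4104947 (minus strand). Capitals mark CCAAT on either strand and, in Hmgcs1, the sterol response element TCACNCCAC.
Hmgcs1: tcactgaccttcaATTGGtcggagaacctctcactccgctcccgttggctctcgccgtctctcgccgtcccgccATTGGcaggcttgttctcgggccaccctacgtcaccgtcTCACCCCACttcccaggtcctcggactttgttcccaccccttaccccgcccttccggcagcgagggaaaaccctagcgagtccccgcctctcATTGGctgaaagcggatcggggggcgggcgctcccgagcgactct
Idi1: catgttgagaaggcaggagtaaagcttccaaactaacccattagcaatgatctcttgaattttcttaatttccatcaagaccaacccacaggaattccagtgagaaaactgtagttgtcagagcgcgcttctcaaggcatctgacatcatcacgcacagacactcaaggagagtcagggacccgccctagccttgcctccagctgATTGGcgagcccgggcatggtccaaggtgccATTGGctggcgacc
Cyp51: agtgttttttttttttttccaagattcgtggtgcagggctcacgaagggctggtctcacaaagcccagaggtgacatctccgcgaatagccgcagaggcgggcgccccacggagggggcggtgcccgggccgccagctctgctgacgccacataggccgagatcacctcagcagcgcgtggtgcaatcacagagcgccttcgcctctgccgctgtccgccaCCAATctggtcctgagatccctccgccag
Within the bases shown, the CCAAT nearest to the start begins 45 bases before the start in Hmgcs1, 14 in Idi1 and 29 in Cyp51. Over windows of 300 bases, from 250 before to 50 after the start, 10 of the 15 called genes had a RefSeq promoter and 10 of these held CCAAT, against 41.1% of 27025 genes and 43.4% of the tested ones. TCACNCCAC was in 1 of the 10 (Hmgcs1), against 1.44% of all and 1.7% of the tested ones. CCAAT was picked for display after its counts were seen, from 14 motifs searched on both strands: these 2, the octamer ATGCAAAT, its looser form ATGCNAAT (which includes the former), the SOX motif CATTGTT, the RBPJ motif TGGGAA, the E-box CACGTG, the STAT motif TTCCNGGAA, the E2F motif GGCGGGA, the AP-1 motif ATGACTCAT, the cyclic AMP element TGACGTCA and the longer NFI, NRF1 and OCT4-SOX2 motifs. In the same 10 promoters the E2F and RBPJ motifs were in 3 each (12.7% and 28.3% of all genes, 24.7% and 26.9% of the tested ones). The E-box was in 2 (8.09% of all, 12.5% of the tested), the cyclic AMP element in 1 (2.03% and 3.52%), and the remaining 8 in 0. Among all called genes at least 2-fold higher, CCAAT was in 40.6% of 330 promoters, and among those lower in 43.7% of 398.

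Many respiratory chain genes also rose. Of 51 genes on the array 48 were tested, and 21 rose and 1 fell (43.8% of those tested higher), with a median of 0.87 over the genes on the array. The differences were small next to those of the neural genes. Atp5o of the ATP synthase had 7958 in the neurospheres, 2470.3 in the aggregation array and 1966 in the suspension array (log2 difference 1.84, SE 0.29, limma adjusted p = 3.6e-05). The complex I subunits Ndufs3 (5117 against 1535 and 1524) and Ndufc1 (3268 against 1322 and 541), the complex II subunit Sdhd (6112 against 2273 and 1986) and Uqcrh of complex III (7128 against 2389 and 1483) rose. Ndufa7 fell (5635 against 12056 and 14768). Scaling by quantiles, by the median and by cyclic loess gave 22, 21 and 23 rises. Without the trend limma called 0, with 18 higher at an unadjusted p under 0.05.

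Some glucose uptake and glycolysis genes fell. The list they belong to covers glycolysis and hypoxia genes together. Of its 30 genes on the array 29 were tested, and 2 rose and 10 fell (6.9% and 34.5%), with 2 falls and 0 rises without the trend. The glucose transporter Slc2a3 had 228 in the neurospheres, 5702 in the aggregation array and 6858 in the suspension array (log2 difference -4.59, SE 0.31, limma adjusted p = 1.2e-11). Slc2a1 (105 against 903 and 1928) and the kinase Pdk1, which holds back pyruvate oxidation (307 against 818 and 2355), fell. Hexokinase 2 (Hk2) fell on its brightest probe set (123 against 1271 and 1986), and a second probe set differed by 1.12. In these 4 genes the suspension signal exceeded the aggregation signal. The count of falls was 7, 11 and 6 under quantile, median and cyclic loess scaling. Other list members went up. Egln1 rose (785 against 66.9 and 351), a call lost without the trend and under quantile and cyclic loess scaling. Adm (248 against 19 and 44.4) was at least 2-fold above both arrays but was not called by limma.

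**Figure D4:**
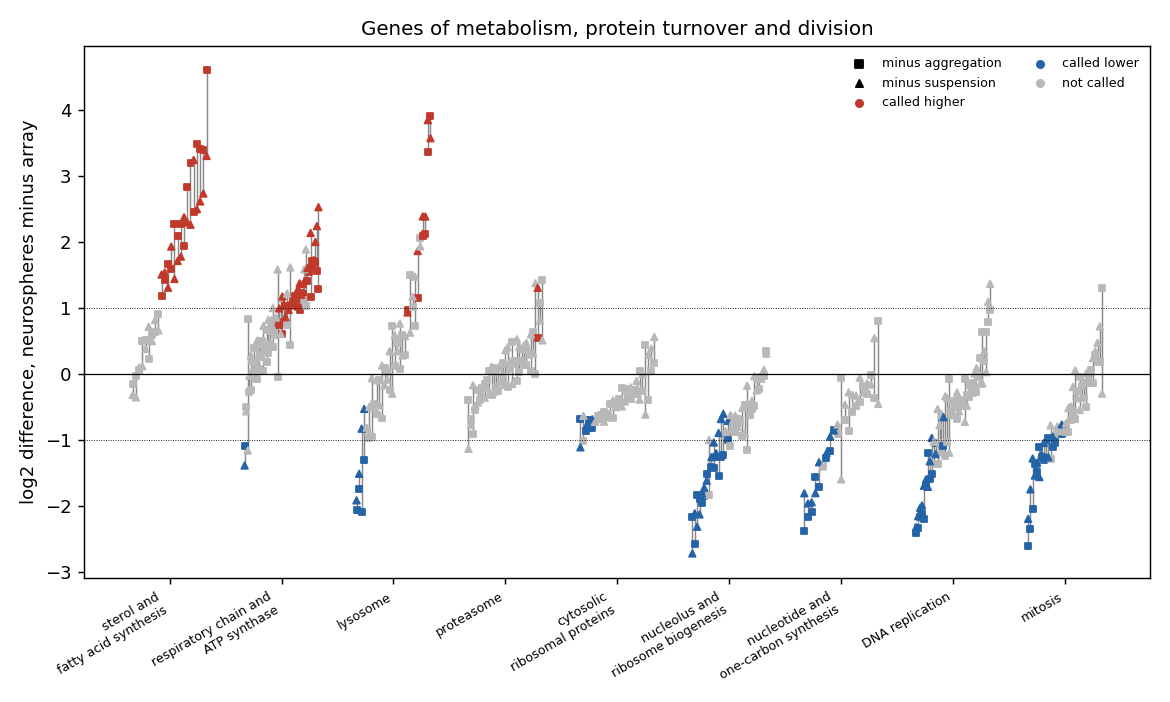
Log2 difference of neurospheres minus the aggregation array (squares) and minus the suspension array (triangles) for each tested member of 9 gene lists, joined by a line per gene. Red and blue mark genes called by limma, and the sterol genes reach 3.95 for Scd2 on average while the proteasome genes lie around 0.

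Some genes for growth and division fell. Of 32 nucleolar genes on the array, each of them tested, 0 rose (0 by limma at unadjusted p under 0.05) and 14 fell (0% and 43.8%, median -0.85). Nucleophosmin (Npm1) had 6049 in the neurospheres, 23450.0 in the aggregation array and 21283 in the suspension array (log2 difference -1.88, SE 0.26, limma adjusted p = 6.6e-06), and nucleolin (Ncl) 5945 against 16957 and 18271. In DNA replication 39 of 43 were tested and 0 rose (1 by limma at unadjusted p under 0.05) and 11 fell (0% and 28.2%, median -0.52). The licensing factor Cdt1 (877 against 4764 and 4496) and the helicase subunits Mcm2 (902 against 4159 and 3772) and Mcm3 (1285 against 4179 and 3952) fell. In mitosis 34 of 34 were tested and 0 rose (0 by limma at unadjusted p under 0.05) and 13 fell (0% and 38.2%, median -0.82). The spindle motor Kif20a (478 against 3053 and 2297), Cdc20 (3255 against 13546 and 7944) and cyclin B2 (Ccnb2, 3292 against 8519.5 and 9616) fell. Under cyclic loess the falls were 10, 8 and 8 for the 3 lists, and without the trend limma called 0 in each, with 12, 11, 10 lower at an unadjusted p under 0.05.

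Nucleotide and one-carbon synthesis showed 0 rises and 8 falls by limma among 21 genes (0% and 38.1%, 0 up at an unadjusted p under 0.05). The falls included Cad (251 against 1241 and 1068), Gldc (708 against 3100.2 and 2811) and Gart (642 against 1946 and 2320.4). Mthfd2 fell (970.4 against 5197 and 3472), with a second probe set at 0.78. Ribosomal protein genes showed 4 small falls among 26 tested (15.4%, near the 10.1% of all features). The largest was in Rpl13a (2838 against 4559.5 and 6163), and cyclic loess left 0 of the 4 (1 lower at an unadjusted p under 0.05 by limma). Of 33 proteasome genes tested 1 rose (3.03%), Psmd1 (4447 against 3042 and 1781), and the median over the genes on the array was 0.10. Splicing factors showed 5 falls among 36 tested (13.9%, also near the 10.1% of all features), with 1 under cyclic loess and 8 under median scaling. The cytosolic chaperone Hsp90aa1 fell (5643 against 36466 and 28806, log2 difference -2.52, SE 0.27, limma adjusted p = 9.0e-08), 1 of 5 falls among 23 chaperones tested (21.7%).

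Regulators of G1 moved both ways. Of 32 genes on the array 27 were tested, and 3 rose and 7 fell (11.1% and 25.9%). Cyclin D1 (Ccnd1) had 6899 in the neurospheres, 522 in the aggregation array and 1134 in the suspension array (log2 difference 3.11, SE 0.37, limma adjusted p = 5.9e-07), and cyclin D2 (Ccnd2) had 1339.9 against 40 and 74.9 (log2 difference 3.97, SE 0.80, limma adjusted p = 6.6e-04). Both are D cyclins, which carry cells through G1. A second Ccnd1 probe set differed by 0.12, and the Ccnd1 call was lost without the trend. Gas1 rose (2828 against 71 and 234). Cyclin E1 (Ccne1, 931 against 2027 and 2118), its kinase Cdk2 (123 against 631 and 763) and Gadd45a (252 against 1025 and 1126) fell. Myc had 377 against 121 and 117, at least 2-fold above both arrays, but did not pass (limma adjusted p = 0.26).

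Some epithelial junction genes fell. Of 31 genes on the array 24 were tested, and 0 rose (0 by limma at unadjusted p under 0.05) and 9 fell (0% and 37.5%, median over the genes on the array -0.89, 2 falls without the trend). The tight junction proteins Cldn4 (109.7 against 1459.9 and 1179.9), Cldn6 (91.7 against 578 and 795) and F11r (213 against 1759 and 1086) and plakoglobin (Jup, 204 against 843 and 1538) fell. E-cadherin (Cdh1), which joins ES cells, had 646 in the neurospheres, 1242 in the aggregation array and 969 in the suspension array (log2 difference -0.74, SE 0.38, limma adjusted p = 0.2). Epcam had 15.4 against 152 and 355, at least 2-fold below both arrays, but was not called by limma. Among integrins 19 of 26 were tested and 5 rose and 2 fell (26.3% and 10.5%, 0 without the trend, and 6 and 3 by limma at an unadjusted p under 0.05). Itgb5 (2217 against 108 and 249, second probe set 0.47) and Itgb1 (3898 against 598 and 1238) rose, and Cd9 fell (1805 against 4526 and 3813).

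Matrix genes of other tissues showed 2 rises and 6 falls among 30 tested (6.67% and 20%). Fibronectin (Fn1, 307 against 3041 and 3137), laminin alpha 5 (Lama5, 165 against 1179 and 784) and nidogen 2 (Nid2, 16.5 against 635 and 760.4) fell, and Col18a1 fell (137 against 3774 and 2891) with other probe sets between -4.29 and 0.19. Fibulin 2 (Fbln2, 4557 against 254 and 738) and the collagen chaperone Serpinh1 (2577 against 141 and 499.9) rose. Of 32 actin genes tested 6 rose and 5 fell (18.8% and 15.6%). Profilin 2 (Pfn2), the neural profilin, rose (2288 against 18.4 and 19.5), as did Marcks (7386 against 278 and 237) and thymosin beta 4 (Tmsb4x, 16050.0 against 1854 and 2161), while Actn1 (246 against 1309.7 and 1505) and ezrin (Ezr, 329 against 1609 and 1309) fell.

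Of 43 chromatin regulators tested 3 rose and 10 fell (6.98% and 23.3%, 1 and 1 without the trend). Within the Polycomb group, Phc1 (225 against 3292 and 3823), Eed (457 against 4197 and 2554), Suz12 (303 against 662 and 1004, other probe sets -0.80 to 0.04) and Jarid2 (1023 against 5821 and 9302) fell, and Phc2 (872 against 61.5 and 65.9) and Bmi1 (1093 against 329 and 83.1) rose. Phc1 and Phc2 are paralogs of one complex and lay on opposite sides. The deacetylase Hdac1 (426 against 1797 and 1515) and the corepressor Trim28 (11266 against 40629 and 36192) fell.

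Of 20 imprinted genes tested 5 rose and 5 fell (25% and 25%). Beside Nnat, necdin (Ndn, 1768 against 185 and 281) and Mest (1816 against 448 and 373) rose, and Gnas rose (32524 against 4446 and 5037) on its brightest probe set, with the others between -0.28 and -0.01. Peg3 (237 against 1646 and 744, other probe sets -0.99 to -0.41), Phlda2 (209 against 1442 and 1287) and Grb10 (106 against 493 and 477, other probe sets -1.75 to -0.15) fell. In redox metabolism 35 of 39 were tested and 5 rose and 7 fell (14.3% and 20%). Thioredoxin (Txn1, 53854 against 5748 and 8218) and Prdx2 (13030.0 against 4038 and 4184, other probe sets -0.06 to 1.12) rose, and Gsta4 (54.3 against 1023 and 1519), Gstt2 (58.3 against 3358 and 1215) and Sod1 (8969.8 against 24403 and 22904) fell. The brain metallothionein Mt3 rose as given above, whereas Mt2 fell (7256 against 26066 and 16772).

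Of 30 lysosomal genes tested 6 rose and 4 fell (20% and 13.3%). The ganglioside activator Gm2a (3254 against 187 and 244), cathepsin C (Ctsc, 1000.2 against 67.9 and 39.9, other probe sets 0.02 to 0.82) and Lamp2 (1368 against 298 and 236) rose, and cathepsin L (Ctsl, 1095 against 4661 and 4209.8) fell. Among endoplasmic reticulum chaperones 6 rose and 1 fell of 27 tested (22.2% and 3.7%), with Txndc5 (1136 against 206 and 414) and Ppib (4408 against 1965 and 1653) higher and the stress factor Atf4 lower (2524 against 13873 and 7018). Vesicle traffic genes showed 4 rises and 5 falls among 45, shares near those of all features. Among 28 solute carriers 3 rose and 9 fell (10.7% and 32.1%). The heavy and light chains of a large amino acid transporter, Slc3a2 (2556 against 8155 and 5128) and Slc7a5 (1792 against 4440.0 and 4869), fell. The mitochondrial ADP/ATP carrier Slc25a4 rose (10256 against 2388 and 2206).

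Of 17 MHC class I and interferon genes tested 3 rose and 2 fell (17.6% and 11.8%). H2-D1 (2073 against 677 and 1029, other probe sets -0.06 to 1.13) rose, Irf1 fell (57.9 against 371 and 484), and H2-K1 rose on its brightest probe set (2342 against 896 and 1077) with others between -0.01 and 1.83. Of 22 immediate early genes tested 1 rose and 4 fell (4.55% and 18.2%), with Jun higher (947 against 198 and 52.1) and Ier2 (719 against 2476 and 4242), Nr4a1 (60.8 against 613 and 618) and Ccn2 (21.4 against 491 and 465) lower.

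Regulators of the first embryonic lineages gave few calls. Of 13 endoderm genes tested 0 rose (0 by limma at unadjusted p under 0.05) and 2 fell (0% and 15.4%), namely Rhox5 (40.5 against 1605 and 1047) and Tfpi (30.6 against 484 and 653). None of the 12 streak and mesoderm genes tested was called by limma (0 up and 1 down at an unadjusted p under 0.05). Of 11 trophoblast genes tested 1 fell (9.09%), Tfap2c (72.6 against 2302 and 2372, log2 difference -4.50, SE 0.39, limma adjusted p = 1.5e-09). By the 2-fold rule against both arrays, 1 trophoblast gene was higher and 4 were lower (9.09% and 36.4%, beside 11.6% and 11.7% of all features). Of 7 primitive ectoderm genes tested 1 rose and 2 fell (14.3% and 28.6%). Sox3, which neural progenitors share, was higher (2085 against 582 and 589.9) on 1 probe set, with others between -0.32 and 2.95.

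Without the intensity trend, the rises and falls left in groups not given above were 2 and 1 for FGF, EGF and PDGF genes, 1 and 0 for neuronal genes, 1 and 0 for receptors and channels, 0 and 1 for microglia genes, 1 and 1 for G1 regulators, 3 and 0 for actin genes, 0 and 3 for collagens and laminins and 2 and 0 for imprinted genes. They were 3 and 1 for redox enzymes, 2 and 0 for lysosomal genes, 0 and 2 for solute carriers, 0 and 2 for immediate early genes, 0 and 1 for vesicle genes, 0 and 2 for endoderm genes, 0 and 1 for primitive ectoderm genes and 0 and 1 for trophoblast genes. In the endothelial, MHC class I, endoplasmic reticulum, chaperonin, splicing, proteasome, ribosomal protein and nucleotide groups limma called 0 without the trend, while 2, 7, 6, 2, 2, 0, 0, 8 genes, in that order, had an unadjusted p under 0.05.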

How the data were processed

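Total RNA (RNeasy) was measured once per array. Per the labels and files, the authors deposited 1 MAS5 signal per probe set, a linear intensity, and MAS5 is named in the submitters' processing notes. Its background, scaling and detection settings are not given. Precision is limited by the number of arrays: 1 against 2.

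Of 12488 probe sets, 66 controls were left out. The 2% trimmed mean of every array was set to 500, then 32 was added and log2 taken. The brightest probe set stood for a gene among 7792 at or above the array median on at least 1 array, a filter that favours genes high in 1 group. This left 6662 features, 5842 of them with 1 gene symbol. limma 3.58.1 in R 4.3.3 (lmFit, eBayes with intensity trend, two-sided, 1 residual degree of freedom, prior 25.2) gave Benjamini-Hochberg adjusted p-values over all features. The script was tested on simulated data, in which most 2-fold changes were not called. The simulated spread was drawn from the limma fit and was the same for every array. The simulation therefore could not check the spread assumed for the neurosphere array.

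The members and gene lists were chosen with earlier results of these data known. Genes were named as the 15 largest called differences each way, up to 6 per list at least 2-fold from both arrays, and a fixed set. Other list members named in the text, such as Pax6, Dlx1 and those below the 2-fold limit, were chosen after their values were seen.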

Additional observations from a re-analysis of the deposited data

How the results depend on the processing

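Without the intensity trend limma called 169 features (79 higher, 90 lower) in place of 525 and 671, and of 194 called named genes 64 kept the call. Without a signal filter 444 were called lower, and with a filter on mean signal 463 were at least 2-fold higher than both arrays. At 4-fold from both arrays 454 features remained, 236 higher and 218 lower. Against 1 embryoid body array alone the 2-fold counts were 2195 to 2275 in all, 1123 to 1209 higher and 1066 to 1072 lower, with no test since no residual degree of freedom was left. Among named genes, averaging probe sets turned Qk to 1.497. With plain _at probe sets alone H2-K1 turned to -0.0155, Mtm1 to 0.034 and Rps4l to 0.413. The other alternatives reversed no named gene. The median over all features moved from -0.02 to -0.08 under median scaling and 0.03 under cyclic loess. No paired analysis was possible because the neurospheres have 1 array. Signals near the bacterial controls have no firm order. Of the features 2-fold higher, 401 had both embryoid body arrays below their medians, and of those lower, 450 had the neurospheres below theirs, so these sizes depend on the value added before log2.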

Other observations

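Some genes outside the lists were noticed after their values were seen. The brain creatine kinase Ckb rose from 20060.0 and 6230.4 to 129050.0 (log2 difference 3.52, limma adjusted p = 1.5e-07), and the factor Sox4 from 251 and 795 to 6533. Within the fatty acid binding proteins, Fabp5 rose (3177 against 564 and 209.8) while Fabp3 fell (205 against 3175 and 1327). Rest, a repressor of neuronal genes, fell (242 against 2535 and 1888), and so did the mitochondrial protein Chchd10 (985 against 26050.0 and 26752, log2 difference -4.70). Xist, the RNA of the inactive X chromosome, had 302 in the neurospheres and 39.4 and 32.7 in the embryoid bodies. It was at least 2-fold above both arrays without passing (limma adjusted p = 0.29). The Y-linked Eif2s3y fell (115 against 633 and 453).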
